A study of Mus musculus with 6 samples.

Results

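Matrix metalloproteinases (MMPs) and their tissue inhibitors (TIMPs) were followed through 6 RNA-seq libraries of mouse embryonic fibroblasts. The genes are the 7 proteases Mmp2, Mmp3, Mmp9, Mmp11, Mmp13, Mmp14 and Mmp19 and the 3 inhibitors Timp1, Timp2 and Timp3, which were found by symbol in the count table. They make up 10 of its 55487 genes, and all 10 passed the filter on low counts that left 16962 genes for testing. The cells were wild-type primary fibroblasts, labelled non-senescent at passage 1 (P1) and senescent at passage 6 (P6). Each passage has 3 libraries, of cells cultured for 3 days with vehicle, with α-amyrin at 20 µM or with β-amyrin at 20 µM, and so 1 library per condition. Values below are listed in that order of treatments. The spread behind every p-value is that among these 6 libraries, and the sources used here do not say whether they came from separate cultures or embryos, or whether both passages came from 1 isolate.

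MMPs are zinc-dependent proteases that cut collagens, laminins, fibronectin and proteoglycans outside the cell. They are made as inactive precursors whose propeptide blocks the zinc site until another protease removes it. TIMPs are small secreted proteins that bind the active site of mature MMPs. Timp2 has a further role, since a complex of Timp2 with the membrane protease Mmp14 holds the precursor of Mmp2 at the cell surface, where a free Mmp14 molecule cuts it. MMPs are among the secreted proteins for which senescent fibroblasts are known. α-Amyrin and β-amyrin are plant triterpenoid alcohols and isomers of each other: the ursane skeleton of the first and the oleanane skeleton of the second carry 1 methyl group at different places on the last ring.

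Total counts ran from 18798418 in the P6 α-amyrin library to 28752332 in the P1 α-amyrin library. Cdkn2a, the locus of the senescence-linked inhibitors p16 and p19Arf, stood at 17.2 to 19.4 CPM (counts scaled by TMM to a common library size) in the P1 libraries and at 115 to 116 CPM in the P6 libraries. The 10 fibroblast markers summed to 22365 to 26692 CPM at P1 and 19846 to 24113 CPM at P6. Col1a1 and Col1a2 made up most of each sum, and 7 of the 10 markers were called lower at P6 and 1 higher. The 19 macrophage markers summed to 418, 371 and 58.5 CPM at P1 and to 5870, 5982 and 4146 CPM at P6. All 19 were called higher at P6, and in P1 the β-amyrin library stood apart with the lowest sum. These are bulk libraries, so a change in the share of a cell type and a change in RNA per cell cannot be told apart.

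Mmp3 and Mmp13 lie in 1 cluster of MMP genes on mouse chromosome 9, and their RNA moved in opposite directions between the passages. Their promoters are therefore shown, as the 250 bases before the start that RefSeq annotates on GRCm38.p6, the build that mm10 names. Both windows are on the plus strand, at chr9:7445572-7445821 for Mmp3 and chr9:7272264-7272513 for Mmp13. Capitals mark matches to TGANTCA, the binding motif of the AP-1 factors (Fos and Jun dimers), and to the TATA box TATAAA.

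Mmp3: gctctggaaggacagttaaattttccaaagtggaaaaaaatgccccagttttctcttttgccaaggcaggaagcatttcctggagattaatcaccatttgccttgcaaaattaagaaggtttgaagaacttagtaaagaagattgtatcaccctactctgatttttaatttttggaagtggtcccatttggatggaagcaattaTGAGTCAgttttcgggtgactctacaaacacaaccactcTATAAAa

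Mmp13: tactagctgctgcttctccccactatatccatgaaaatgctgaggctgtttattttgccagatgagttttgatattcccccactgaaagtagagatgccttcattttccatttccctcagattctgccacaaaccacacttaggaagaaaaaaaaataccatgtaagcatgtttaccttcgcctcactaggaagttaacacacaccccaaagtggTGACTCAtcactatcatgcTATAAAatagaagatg

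Both promoters held 1 AP-1 match and 1 TATA match on the plus strand. The AP-1 match began at position -46 in Mmp3 and at -35 in Mmp13, counted so that -1 is the base before the annotated start, and the TATA match began at -7 and -16. The motifs were searched on both strands, and no matches overlapped. AP-1 matches stood in 6.75% of the 32851 promoter windows of the RefSeq table, TATA matches in 12.4% and both in 1.215% (399 windows). RefSeq entries were found for 7 of the 10 genes. The other 5 windows, of Mmp11, Mmp14, Timp1, Timp2 and Timp3, each held at least 1 match to the GC box GGGCGG, which stood in 32.7% of all windows, and no AP-1 or TATA match. The ETS motif AGGAAG (29.5% of windows) matched once in Mmp3 and at 2 places in Mmp13, and the RUNX motif ACCACA (14.0% of windows) matched in Mmp13 and not in Mmp3. ETS matches also stood in the windows of Mmp14, Timp1 and Timp3, and a RUNX match in that of Mmp14.

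In the comparison of P6 with P1, which asks what differs between senescent and non-senescent cultures, Mmp2, Mmp3, Mmp11, Mmp19 and Timp2 rose, and Mmp13, Mmp14 and Timp3 fell. Timp2 rose 2.49-fold, Mmp3 2.65-fold and Mmp19 2.38-fold, while Mmp13 fell to 0.436 of its P1 level. Mmp9 and Timp1 were not called. That makes 8 of 10 genes called by edgeR at an adjusted p below 0.05, against 59.2% of all genes tested. The 5 higher genes compare with 30.0% of all genes called higher, and the 3 lower genes with 29.1% called lower. The same 8 genes had P6 libraries that did not overlap the P1 libraries, 5 above and 3 below, where 64.7% of all genes did not overlap, 32.5% above and 32.2% below. The median log2 fold change of the 10 genes was 0.25, and that of all genes tested was 0.00.

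**Figure D1:**
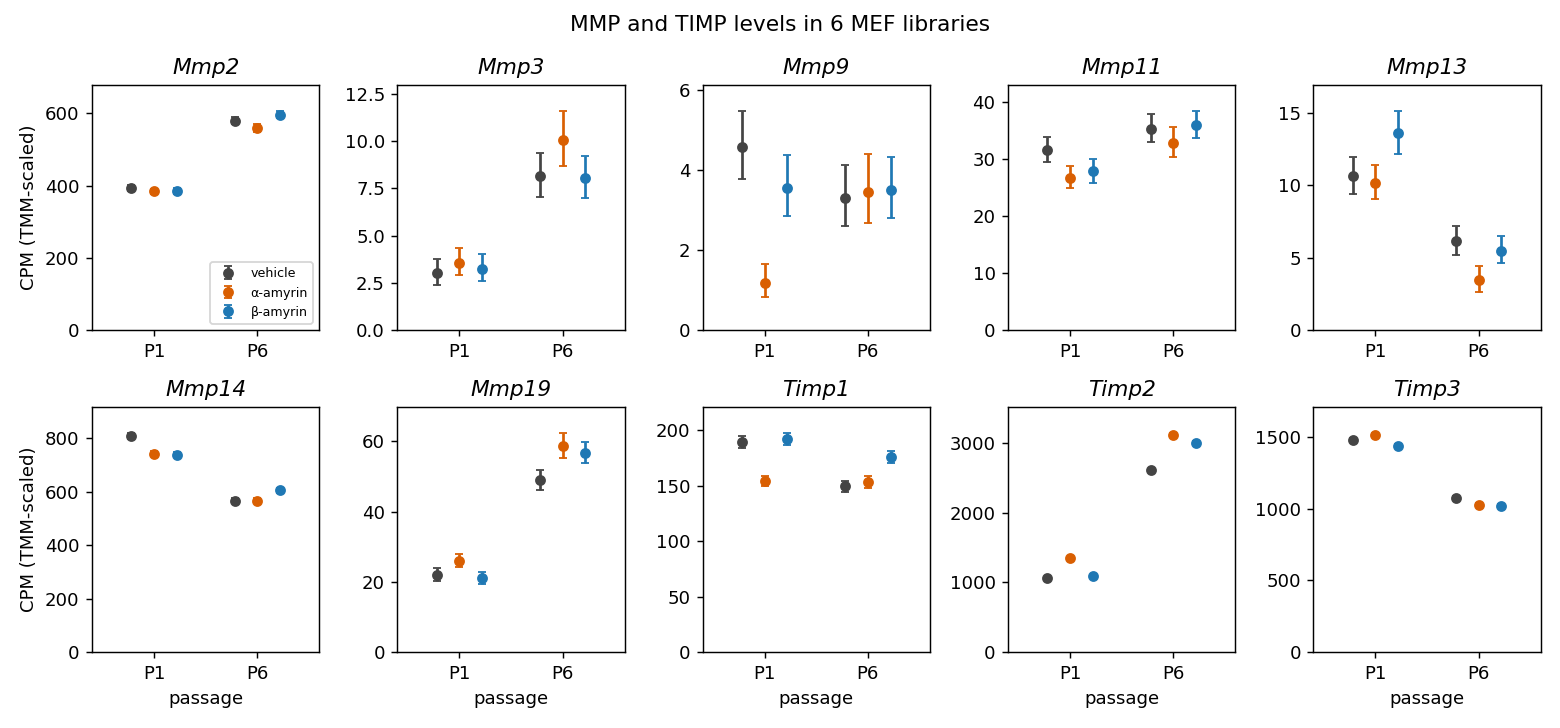
Level of each gene in CPM (scaled by TMM) in each library, with P1 on the left and P6 on the right of each panel. Bars are exact Poisson 95% intervals, which cover counting error only and are smaller than the points for the abundant genes. Timp2, Mmp3 and Mmp19 sit higher at P6 in all 3 treatments, Mmp13, Mmp14 and Timp3 sit lower, and the P1 α-amyrin library has the lowest Mmp9 level (1.19 CPM).

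Mmp2 (gelatinase A, ENSMUSG00000031740, chr8:92827291-92853420 on mm10) degrades type IV collagen and denatured collagens. Its level was 394, 384 and 385 CPM at P1 and 579, 559 and 596 CPM at P6. All P6 libraries stood above all P1 libraries. The log2 fold change was 0.58 ± 0.04 (SE; 95% interval 0.48 to 0.68; edgeR adjusted p = 4.93e-05).

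Mmp9 (gelatinase B, ENSMUSG00000017737, chr2:164940780-164955850) is the other gelatinase and is known from macrophages, neutrophils and osteoclasts. It was low, at 4.56, 1.19 and 3.54 CPM at P1 and 3.30, 3.45 and 3.50 CPM at P6. These values rest on 35 to 119 counts per library. The P6 libraries lay inside the P1 range, which the P1 α-amyrin library set at its lower end with an exact Poisson 95% interval of 0.828 to 1.65 CPM, and the P1 vehicle library at its upper end with 3.78 to 5.46 CPM. With a log2 fold change of 0.23 ± 0.34 (95% interval -0.59 to 1.05; adjusted p = 0.590), Mmp9 was not called. Its direction depended on the treatments used: the value was -0.25 without the P1 α-amyrin library and -0.24 without the P6 α-amyrin library, and 0.63 without P1 vehicle and 0.64 without P6 vehicle. When 1 library of a treatment is left out, the treatment term fits its partner at the other passage exactly. Both fits of a treatment therefore take the passage difference from the libraries of the other treatments.

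Mmp13 (collagenase-3, ENSMUSG00000050578, chr9:7272514-7283331) cuts fibrillar collagens and is the main interstitial collagenase of the mouse. It stood at 10.6, 10.2 and 13.6 CPM at P1 and at 6.13, 3.45 and 5.49 CPM at P6. The P6 libraries were all lower, and P6 α-amyrin was the lowest of them. Its fall amounted to a log2 fold change of -1.20 ± 0.15 (95% interval -1.56 to -0.83; adjusted p = 0.000582). Cartilage and bone cells are known sources of Mmp13: the 9 markers of these cells summed to 474 to 531 CPM at P1 and 205 to 291 CPM at P6. Most of the P1 sums was Col2a1 (416, 389 and 440 CPM). Of the 7 markers tested, 6 were called lower and Col10a1 was called higher (1.52 ± 0.07 on the log2 scale). Col10a1 stood at 38.7, 32.5 and 39.7 CPM at P1 and at 122, 97.5 and 100 CPM at P6. The part of these cells in the Mmp13 value was not tested.

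Mmp3 (stromelysin-1, ENSMUSG00000043613, chr9:7445822-7455975) cleaves proteoglycans, fibronectin and laminin and can activate other proMMPs. Its level was 3.03, 3.57 and 3.26 CPM at P1 and 8.12, 10.03 and 8.04 CPM at P6. The groups did not overlap, and the values rested on 79 to 202 counts per library. Mmp3 had a log2 fold change of 1.41 ± 0.12 (95% interval 1.13 to 1.69; adjusted p = 8.48e-05).

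Mmp11 (stromelysin-3, ENSMUSG00000000901, chr10:75923222-75936496) differs from most secreted MMPs in that furin activates it inside the cell. It stood at 31.6, 26.7 and 27.9 CPM at P1 and 35.3, 32.8 and 35.9 CPM at P6. The groups were close but did not overlap. Its log2 fold change was 0.27 ± 0.07 (95% interval 0.12 to 0.43; adjusted p = 0.00969). The value was 0.22 without the P1 β-amyrin library and 0.21 without the P6 β-amyrin library, and the call was lost in the latter fit. Both fits rest on the vehicle and α-amyrin libraries. Mmp11 shares 155 exon bases with Chchd10 on the opposite strand, and with its counts added the log2 fold change was 0.18 (adjusted p = 0.0424).

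Mmp14 (MT1-MMP, ENSMUSG00000000957, chr14:54431612-54445364) is anchored in the plasma membrane, cuts fibrillar collagen and activates proMmp2. Its level was 809, 743 and 740 CPM at P1 and 567, 568 and 605 CPM at P6. Every P6 library was below every P1 library. Between the passages Mmp14 changed by a log2 fold change of -0.40 ± 0.05 (95% interval -0.52 to -0.27; adjusted p = 0.000641).

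Mmp19 (ENSMUSG00000025355, chr10:128790910-128800824) cuts basement membrane proteins and is known from fibroblasts and myeloid cells. Its level was 22.1, 26.0 and 21.1 CPM at P1 and 49.0, 58.8 and 56.7 CPM at P6. The groups were well apart. P6 exceeded P1 by a log2 fold change of 1.25 ± 0.07 (95% interval 1.08 to 1.43; adjusted p = 2.14e-05). In the authors' FPKM (read values scaled for gene length and depth) the ratio of P6 to P1 was larger, at 3.30, 2.89 and 3.79 in vehicle, α-amyrin and β-amyrin against 2.22, 2.26 and 2.69 in CPM. Mmp19 shares 789 exon bases with Tmem198b and 212 with Gm47093, both on the opposite strand, and with their counts added the log2 fold change was 0.77 (adjusted p = 6.21e-05, within 1.49e-29 to 0.000368 over all 14 alternatives). The sources used here do not say whether counting used strand.

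Of the 3 inhibitors, Timp2 rose, Timp3 fell and Timp1 was not called. Timp1 (ENSMUSG00000001131, chrX:20870166-20874735) inhibits most soluble MMPs and inhibits Mmp14 only weakly. It stood at 189, 154 and 192 CPM at P1 and at 149, 153 and 176 CPM at P6. The groups overlapped, with the P1 α-amyrin library among the P6 values. The log2 fold change of -0.16 ± 0.07 (95% interval -0.32 to 0.00; adjusted p = 0.0845) was not called. It was called by edgeR with no filter on low counts (-0.17, adjusted p = 0.0208) and in some fits that left out 1 library. The value was -0.23 without the P1 or the P6 α-amyrin library, fits that both rest on the vehicle and β-amyrin libraries. It was -0.18 and -0.19 without P1 and P6 β-amyrin, and -0.08 and -0.07 without P1 and P6 vehicle.

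Timp2 (ENSMUSG00000017466, chr11:118301069-118355740) inhibits Mmp2 and Mmp14 and takes part in proMmp2 activation. Its level was 1068, 1350 and 1099 CPM at P1 and 2605, 3113 and 3002 CPM at P6. The lowest P6 library, vehicle, stood well above the highest P1 library, α-amyrin. The log2 fold change was 1.31 ± 0.06 (95% interval 1.18 to 1.45; adjusted p = 7.40e-06).

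Timp3 (ENSMUSG00000020044, chr10:86300372-86349506) binds the extracellular matrix and also inhibits ADAM and ADAMTS proteases. It stood at 1479, 1510 and 1437 CPM at P1 and at 1071, 1023 and 1021 CPM at P6. All P6 libraries were lower. This was a log2 fold change of -0.51 ± 0.04 (95% interval -0.61 to -0.41; adjusted p = 8.00e-05). Timp3 lies inside Syn3, a synapsin gene on the opposite strand, and shares 1733 exon bases with it. Counts of Syn3 were 39.3% to 42.3% of those of Timp3 in every library, and with them added the log2 fold change of Timp3 was -0.49.

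**Figure D2:**
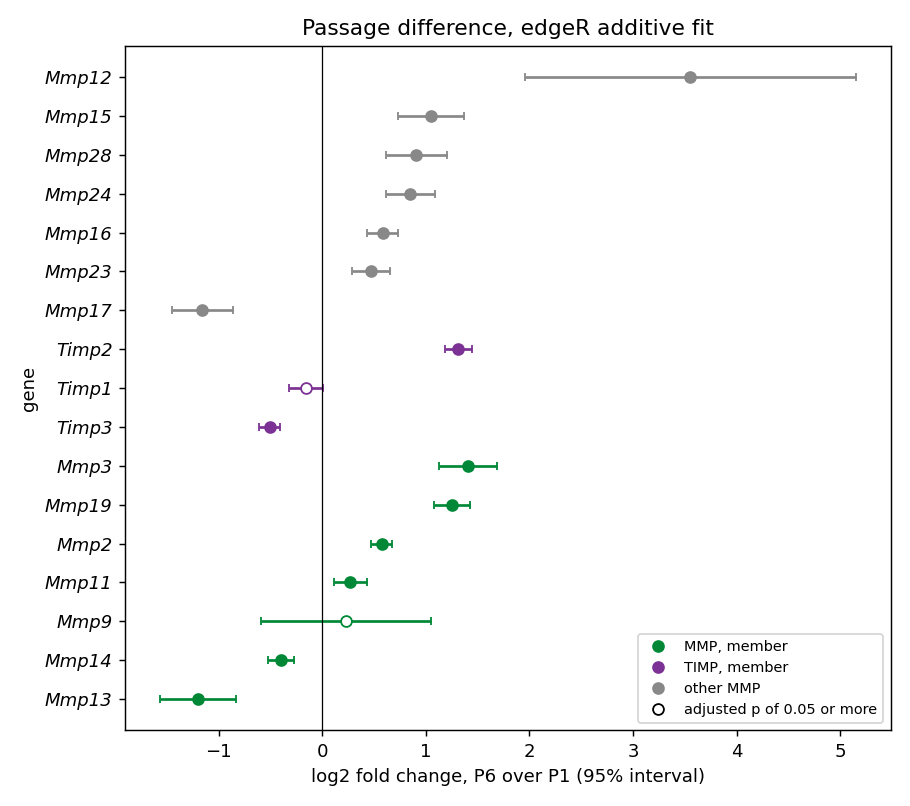
Log2 fold change of P6 over P1 (points) with 95% intervals (lines) from the edgeR fit of passage and treatment, for the 10 genes and for the 7 other MMPs tested. Open points have an adjusted p of 0.05 or more: Mmp9 (0.590) and Timp1 (0.0845). Timp2, Mmp3, Mmp19, Mmp12 (3.55) and Mmp15 (1.05) lie above 1, and Mmp13 and Mmp17 (-1.16) lie below -1.

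With 1 library on each side there is no replicate check, and pairs were read by size, as at least 2-fold with at least 5 CPM in 1 library. Mmp3, Mmp19 and Timp2 were higher by size at P6 in vehicle (3 genes, where 9.44% of all genes changed by size), in α-amyrin and in β-amyrin. Mmp13 was lower by size in the α-amyrin pair, which made 4 genes against 9.69% of all genes, and in the β-amyrin pair, with 4 genes against 9.56%. In the vehicle pair the log2 ratio of Mmp13 was -0.78, compared with -1.54 in α-amyrin and -1.29 in β-amyrin.

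Levels of different genes were compared per length, in deposited FPKM. Timp2 was the most abundant, with a median of 524 (range over the 6 libraries 282 to 824), and its range lay above those of the other 9. Timp1 (195), Timp3 (159), Mmp2 (143) and Mmp14 (118) followed, and each of these overlapped its neighbour in that order. Well below came Mmp11 (11.5), Mmp19 (8.82), Mmp3 (3.33) and Mmp13 (3.27), which again overlapped their neighbours. Mmp9 (1.01) was lowest, and its highest library met the lowest of Mmp13 at 1.31 FPKM. CPM per kb of annotated exon gave the same order.

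The order of some neighbours differed between the passages. At P1 Mmp14 exceeded Mmp2 in all 3 treatments, at 144, 136 and 130 FPKM against 118, 117 and 113. At P6 Mmp2 exceeded Mmp14, at 173, 167 and 174 FPKM against 101, 102 and 105. Mmp3 and Mmp13 changed places too: Mmp13 had 4.34, 4.09 and 5.55 FPKM at P1 against 1.74, 2.09 and 1.82 for Mmp3. At P6 Mmp13 had 2.45, 1.31 and 2.19 FPKM and Mmp3 had 4.76, 5.76 and 4.58. Within a passage the order varied for Timp1 and Timp3 at P1, where Timp1 had 225, 183 and 223 FPKM and Timp3 188, 197 and 183. It also varied for Mmp11 and Mmp19 at P6, with 12.61, 11.97 and 13.25 FPKM for Mmp11 and 12.47, 14.97 and 14.28 for Mmp19. In CPM per kb it did not vary for this pair: Mmp19 had 13.9, 16.6 and 16.1 at P6 against 12.7, 11.8 and 12.9 for Mmp11.

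Summed over the genes, the difference between passages was larger for the inhibitors than for the proteases. The 7 MMPs summed to 284, 274 and 265 FPKM at P1 and 306, 304 and 315 at P6, and Mmp2 and Mmp14 made up 88.5% to 92.4% of each sum. The 3 TIMPs summed to 694, 746 and 692 FPKM at P1 and 991, 1134 and 1119 at P6. The ratio of these sums was 2.44, 2.72 and 2.61 at P1 and 3.24, 3.73 and 3.55 at P6, so every P6 library was above every P1 library. The share of Timp2 in the TIMP sum was 40.6%, 49.0% and 41.4% at P1 and 68.9%, 72.7% and 70.0% at P6. Timp2 over Mmp14, the pair that presents and cuts proMmp2, was 1.96, 2.68 and 2.20 at P1 and 6.79, 8.11 and 7.44 at P6. These ratios are of RNA levels and were not tested.

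**Figure D3:**
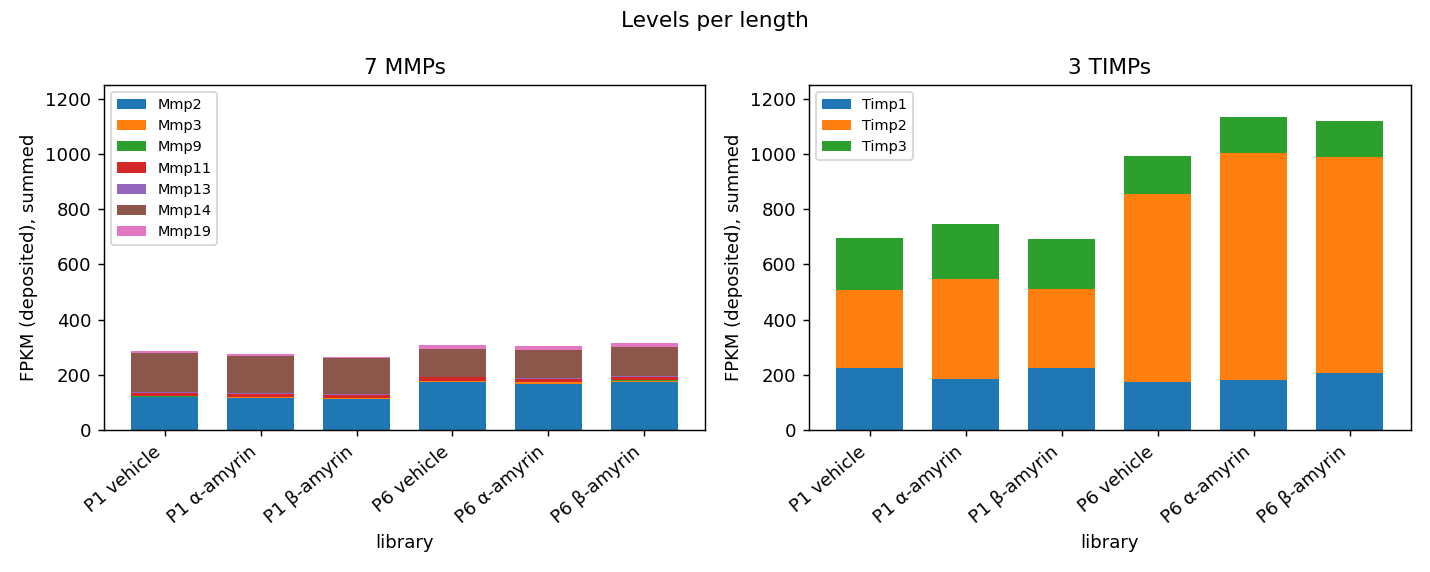
Deposited FPKM of the 7 MMPs (left) and 3 TIMPs (right), stacked by gene in each of the 6 libraries, on the same axis from 0. The MMP stacks stay between 265 and 315 FPKM and consist mostly of Mmp2 and Mmp14, while the TIMP stacks are 692 to 746 at P1 and 991 to 1134 at P6, with most of the difference in Timp2.

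Of the other MMPs and Timp4, 7 of 17 were tested, and 6 were higher and 1 was lower at P6, where 30.0% of all genes were called higher and 29.1% lower, with a median log2 fold change of 0.85. The membrane-bound Mmp15, Mmp16 and Mmp24 rose by log2 fold changes of 1.05 ± 0.13, 0.58 ± 0.06 and 0.85 ± 0.10, and the membrane-anchored Mmp17 fell (-1.16 ± 0.13). Mmp23 and Mmp28 also rose (0.47 ± 0.08 and 0.91 ± 0.12). All of these were under 50 CPM in every library. Timp4, the remaining inhibitor, was at or near 0 in every library.

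In the chromosome 9 cluster, the annotated order is Mmp13, Mmp12, Mmp1b, Mmp3, Mmp1a, Mmp10, Mmp8, Mmp27, Mmp20 and Mmp7. Mmp13, Mmp12 and Mmp3 were the only 3 of these 10 genes to reach 1 CPM in any library. Mmp1a, Mmp20 and Mmp7 had no counts. Mmp12 (macrophage elastase, chr9:7344381-7369499) stood at 2.57, 2.72 and 1.01 CPM at P1 and at 9.86, 16.3 and 77.3 CPM at P6. Its P6 libraries were all higher but spread widely, with β-amyrin on top. The log2 fold change was 3.55 ± 0.67 (95% interval 1.96 to 5.15; adjusted p = 0.00348). Between neighbours in the cluster, then, Mmp12 and Mmp3 rose at P6 and Mmp13 fell.

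Macrophage markers moved with passage beside these genes. Lyz2 (lysozyme) stood at 136, 85.6 and 17.6 CPM at P1 and 2704, 2630 and 2159 CPM at P6, and Adgre1 (F4/80) at 19.6, 20.9 and 1.45 CPM at P1 and 312, 337 and 165 CPM at P6. The P1 β-amyrin library had the lowest marker sum. Its levels of Mmp3 (3.26 CPM), Mmp19 (21.1 CPM) and Timp2 (1099 CPM) were near those of P1 vehicle at 3.03, 22.1 and 1068 CPM. Without that library their log2 fold changes between passages were 1.45, 1.15 and 1.24. Those values rest on the vehicle and α-amyrin libraries, since the treatment term then fits the P6 β-amyrin library exactly. The marker sums of the vehicle and α-amyrin libraries differed between the passages, so this fit cannot decide the part of macrophage RNA. Between P1 and P6 the marker sum and Mmp12, Mmp19, Mmp3 and Timp2 rose together, and Mmp2 and Mmp11 rose as well. Within P6, Mmp12 was highest in β-amyrin (77.3 CPM), where the marker sum was lowest (4146 CPM). The part of macrophage RNA in these values was not tested. Mmp9, also known from macrophages, was not called. Neutrophil markers were at or near 0 (the 8 summed to 0.04 to 0.31 CPM, and 3 to 7 of 8 were at 0). The 8 osteoclast markers summed to 80.8 to 83.7 CPM at P1 and 78.1 to 110 CPM at P6. Of the 5 tested, Acp5 rose (2.74 ± 0.22), as did Atp6v0d2 (4.83 ± 0.38), which stood at 0.08, 0.48 and 0.28 CPM at P1 and 3.85, 5.52 and 17.0 CPM at P6, while Ctsk fell (-0.25 ± 0.07). The calcitonin receptor gene Calcr was at 0.04 to 0.10 CPM at P1 and at 0 in all P6 libraries. The part of osteoclast RNA in the values of the MMPs was not tested.

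**Figure D4:**
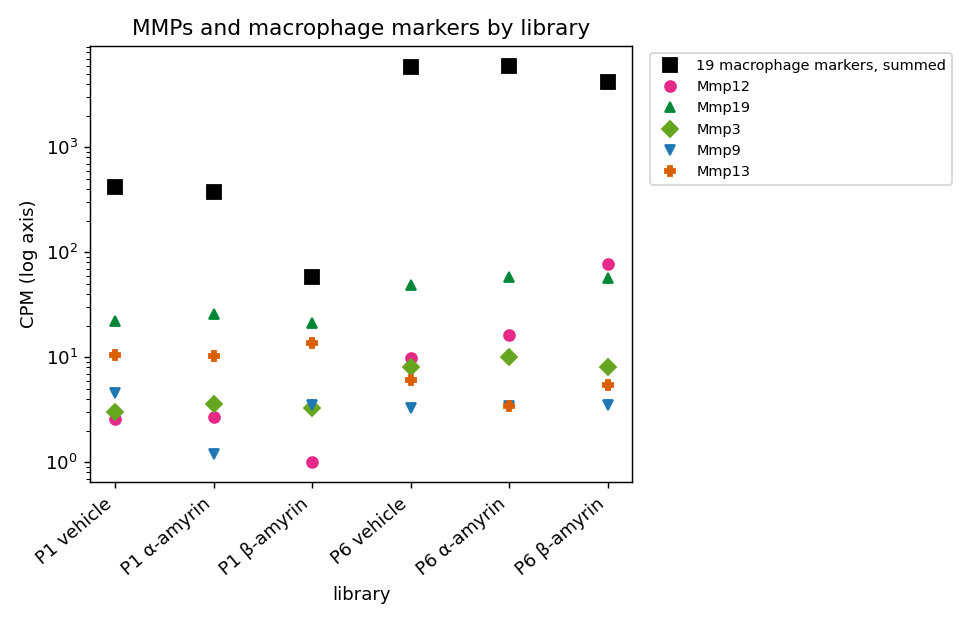
CPM on a log axis in each library for the sum of 19 macrophage markers (black squares) and for Mmp12, Mmp19, Mmp3, Mmp9 and Mmp13. The marker sum is 58.5 to 418 at P1 and 4146 to 5982 at P6, Mmp12, Mmp19 and Mmp3 are higher at P6, Mmp13 is lower, and Mmp9 stays between 1.19 and 4.56 CPM.

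Proteases that take part in MMP activation did not move one way. Of 7 tested, 3 rose (the matriptase gene St14, 1.03 ± 0.13 on the log2 scale, Plau, 0.59 ± 0.12, and Pcsk7, 0.21 ± 0.06), 2 fell (Pcsk5, -0.67 ± 0.12, and Plat, -0.25 ± 0.06) and 2 were not called. Furin, which processes proMmp11 and proMmp14, was among the latter at 0.03 ± 0.05. The plasminogen gene Plg, also listed, was at or near 0 in every library and was not tested. Other inhibitors and cell surface partners were divided as well, with 3 of 9 higher, 3 lower and 3 not called. Lrp1, an endocytic receptor that clears MMP and TIMP complexes, rose (0.73 ± 0.05), as did the membrane-anchored inhibitor Reck (0.51 ± 0.08) and Bsg, the MMP inducer basigin (0.44 ± 0.05). Tfpi2, a serine protease inhibitor, fell (-2.64 ± 0.18), as did Cd44 (-0.27 ± 0.07) and Spock3 (-0.44 ± 0.12).

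Among ADAMs, membrane proteases that release cell surface proteins, 4 of 10 were higher, 3 lower and 3 not called. Adam15 (0.96 ± 0.05), Adam17 (0.50 ± 0.05), Adam10 (0.12 ± 0.04) and the leukocyte gene Adam8 (3.92 ± 0.42) rose, and Adam12 (-2.07 ± 0.06), Adam19 (-0.84 ± 0.05) and Adam33 (-1.71 ± 0.17) fell. The ADAMTS proteases, which cut proteoglycans and procollagens, had 11 of 17 genes called lower, 3 higher and 3 not called, against 29.1% of all genes called lower and 30.0% higher, with a median log2 fold change of -0.65. Adamts12 (-0.95 ± 0.05), Adamts9 (-1.84 ± 0.09) and Adamts15 (-4.12 ± 0.26) were among those that fell, while Adamts5 (0.58 ± 0.04), Adamts1 (0.41 ± 0.05) and Adamts10 (0.19 ± 0.04) rose. Timp3, which inhibits several of these enzymes, was lower at P6.

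Matrix proteins that MMPs cut had 14 of 21 genes called lower, 3 higher and 4 not called, against 29.1% of all genes called lower and 30.0% higher, and a median of -0.43. Their summed level was higher at P6 in every treatment, at 63721, 51549 and 59310 CPM at P1 and 74370, 64804 and 72687 CPM at P6. The sum rose through Fn1, which stood at 13589, 10795 and 11486 CPM at P1 and 30105, 28955 and 30466 CPM at P6. In every treatment the gain in Fn1 exceeded the gain in the sum, so the other substrates together were lower at P6. Elastin (Eln) fell from 1089, 686 and 884 CPM at P1 to 135, 101 and 105 CPM at P6 (-2.96 ± 0.07), and the proteoglycans versican (Vcan, -1.57 ± 0.04) and aggrecan (Acan, -4.78 ± 0.15) fell too. The 3 that rose were fibronectin (Fn1, 1.33 ± 0.06), biglycan (Bgn, 0.33 ± 0.04) and Col5a2 (0.26 ± 0.05). The interstitial collagen chain Col1a1 fell by 0.29 on the log2 scale, and Col1a2 was not called (0.08 ± 0.04).

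Transcription factors that bind MMP promoters were divided. Of 12 AP-1, ETS and RUNX2 genes, 4 rose (Fos, 1.35 ± 0.14, Etv5, 0.46 ± 0.07, Fosl2, 0.15 ± 0.05, and Ets2, 0.15 ± 0.05), 5 fell (Ets1, -1.14 ± 0.07, Etv4, -1.12 ± 0.09, Fosl1, -0.66 ± 0.08, Runx2, -0.50 ± 0.06, and Jun, -0.27 ± 0.05) and 3 were not called. Of 10 tested genes of cytokines and receptors that act on MMP expression, 5 rose and 4 fell. Il1rn, the interleukin-1 receptor antagonist (1.92 ± 0.07), Tnf (3.72 ± 0.34), Tgfb1 (0.51 ± 0.07), Tgfb2 (0.38 ± 0.06) and Tnfrsf1a (0.27 ± 0.06) rose, and the interleukin-1 receptor Il1r1 (-1.30 ± 0.07), Lif (-0.83 ± 0.12), Tgfb3 (-0.37 ± 0.06) and Osmr (-0.37 ± 0.05) fell. Tnf, a macrophage product, was at 0.08 to 0.85 CPM at P1 and 4.93 to 7.27 CPM at P6.

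The amyrins were compared with vehicle over both passages at the single dose and time of the study. No MMP or TIMP was called under α-amyrin, where edgeR called 5 genes in all, 0.0295% of those tested. At an unadjusted p below 0.05 there were 2 of the 10, Timp2 and Mmp19, against 11.8% of all genes. Timp2 averaged 2231 CPM in α-amyrin and 1836 CPM in vehicle and was higher with α-amyrin at both passages (1350 against 1068 CPM at P1, 3113 against 2605 CPM at P6). Its log2 fold change was 0.30 ± 0.07 (95% interval 0.14 to 0.46; adjusted p = 0.211). DESeq2 called it (0.30, adjusted p = 0.0129), as did edgeR with no filter (adjusted p = 0.000248) and in the 4 α-amyrin and vehicle libraries alone (adjusted p = 0.00888). Without the P1 or P6 β-amyrin library the value was 0.30 and 0.29. In those 2 fits the treatment term fits the other β-amyrin library exactly. Their values therefore rest on the same 4 α-amyrin and vehicle libraries. Over its 14 alternatives adjusted p ran from 0.000248 to 0.786. Leaving out P1 α-amyrin gave 0.21 (adjusted p = 0.786) and leaving out P6 α-amyrin gave 0.39 (0.192).

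Mmp19 was also higher with α-amyrin at both passages, by 0.25 ± 0.09 (95% interval 0.04 to 0.46; adjusted p = 0.356), and by 0.11 with the overlapping genes added. Mmp9 had the widest interval, at -0.88 ± 0.43 (-1.91 to 0.15; adjusted p = 0.496). That value came from P1, where the log2 ratio of α-amyrin to vehicle was -1.87, and at P6 the ratio was 0.06. Without the P1 α-amyrin library the fitted value was -0.07, without P1 vehicle -0.32, and without P6 α-amyrin -1.82. Mmp13 showed the reverse order of passages, with a log2 ratio of -0.06 at P1 and -0.82 at P6, and a fitted value of -0.36 ± 0.19 (-0.82 to 0.09). The value was -0.17 without the P6 α-amyrin library and -0.70 without P1 α-amyrin, and -0.10 and -0.74 without the vehicle library of P6 and of P1. The remaining 6 genes lay between -0.17 (Mmp11) and 0.27 (Mmp3), with adjusted p of 0.465 to 0.934.

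Under β-amyrin no gene of the 10 was called by edgeR, limma or DESeq2, and edgeR called 1 gene in all (0.00590%). None of the 10 had an unadjusted p below 0.05, against 10.3% of all genes. Values lay between -0.18 ± 0.40 (Mmp9) and 0.13 ± 0.18 (Mmp13), and both Timp1 and Timp2 were at 0.12, with 95% intervals of -0.07 to 0.32 and -0.04 to 0.28. Both comparisons use the same 2 vehicle libraries.

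The isomers were set against each other directly, 1 pair of compounds at a matched dose and time. No member differed after adjustment (edgeR, limma and DESeq2), and edgeR called 10 genes in all (0.0590%). Timp1, Mmp13 and Timp2 had an unadjusted p below 0.05, 3 of 10 against 9.21% of all genes. Timp1 was lower with α-amyrin than with β-amyrin by 0.26 on the log2 scale (-0.26 ± 0.08; 95% interval -0.45 to -0.06; adjusted p = 0.450), at 154 against 192 CPM in P1 and 153 against 176 CPM in P6. Mmp13 was lower as well (-0.49 ± 0.19; -0.94 to -0.04; adjusted p = 0.505), at 10.2 against 13.6 CPM and 3.45 against 5.49 CPM. Timp2 was higher (0.17 ± 0.07; 0.01 to 0.33; adjusted p = 0.507). For the proteases with the highest levels the intervals were narrow, from -0.17 to 0.07 for Mmp2 and from -0.20 to 0.11 for Mmp14. For Mmp9 the interval of -1.74 to 0.33 includes a difference of over 2-fold.

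**Figure D5:**
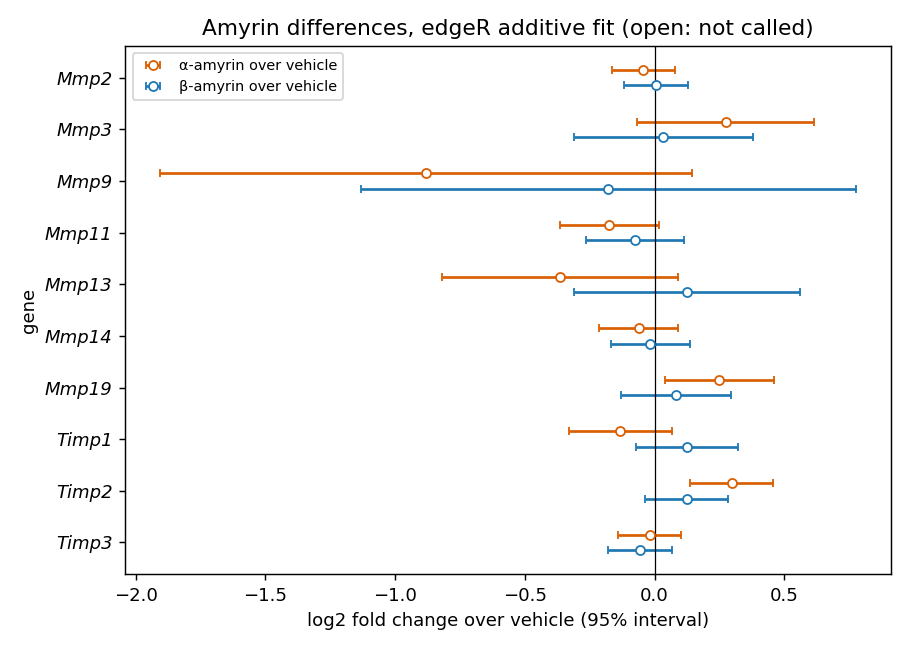
Log2 fold change of α-amyrin (orange) and β-amyrin (blue) over vehicle with 95% intervals, from the edgeR fit over both passages. Every point is open, since no adjusted p was below 0.05. The α-amyrin intervals of Timp2 (0.14 to 0.46) and Mmp19 (0.04 to 0.46) lie above 0, and those of Mmp9 are the widest.

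Read by size, no gene of the 10 changed in any of the 6 pairs of single libraries between treatments. The shares of all genes that did were 0.330% (α-amyrin over vehicle at P1), 0.254% (at P6), 0.613% (β-amyrin over vehicle, at P1 and at P6), 0.755% (α-amyrin over β-amyrin at P1) and 0.472% (at P6). Mmp9 exceeded 2-fold at P1 against both vehicle and β-amyrin but lies below 5 CPM.

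A response to the amyrins that differs between passages was tested by pooling the isomers, so that each passage had 2 amyrin libraries and 1 vehicle library. edgeR called 0 of all genes (0%), 2.66% had an unadjusted p below 0.05, and DESeq2 called 21. None of the 10 genes was called by edgeR, limma or DESeq2 or had an unadjusted p below 0.05. The widest estimates were 1.05 ± 0.78 for Mmp9 (95% interval -0.87 to 2.96) and -0.60 ± 0.43 for Mmp13 (-1.64 to 0.45).

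Around the MMPs, 93 genes of the 8 pathway lists were tested against the compounds. edgeR and limma called none. At an unadjusted p below 0.05 there were 30 under α-amyrin (32.3%, against 11.8% of all genes), 18 under β-amyrin (19.4%, against 10.3%) and 30 for α-amyrin minus β-amyrin (32.3%, against 9.21%). The lists were chosen with earlier results of these data known, so these shares are a description and no test of the lists. DESeq2 called 14, 2 and 9 of the 93, and 194, 114 and 119 of all genes. Of the 93, DESeq2 called the collagen genes Col1a1, Col1a2, Col4a1, Col4a2, Col5a1 and Col5a2 under both α-amyrin and the difference. Tnc, Adam12 and Adamts12 were also called in both. Col1a1 stood at 11859 CPM in P1 α-amyrin against 15011 in vehicle and 14229 in β-amyrin, and at 9338 CPM in P6 α-amyrin against 12622 and 11721. The matrix substrates had a median log2 fold change of -0.20 under α-amyrin and -0.05 under β-amyrin, against 0.01 and 0.00 for all genes.

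Genes whose log2 CPM followed each member other than Mmp3 most closely over the 6 libraries, by Pearson r among 11715 genes with a mean of at least 5 CPM, are given as a description, since 6 points that fall into 2 passages give high r to many genes. For Timp2 they were Mapk3, Tmx4 and BC029722, and for Mmp19 Tmx4, Cndp2 and Sdcbp, so Tmx4 was shared. Mmp2 was followed by Ano8, Dmxl2 and Dhdds, and Mmp11 by Gm16892, Hspb8 and 4833439L19Rik. Among genes lower at P6, Mmp14 was followed by Fgfr1, Ttc3 and Fam171b, Timp3 by Scube3, Spin4 and Acaca, and Mmp13 by Rmdn3, Rangrf and Cdc26. For Mmp9 the genes were Aff1, Abitram and Col7a1, and for Timp1 L3hypdh, Zfp317 and Dusp5, with r of 0.97 to 0.99 in these 6 cases.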

How the data were processed

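Poly(A) RNA from 6 libraries was sequenced from directional libraries, per the labels' protocols. The submitters' processing notes list mm10 and, without roles, HISAT2 2.1.0, featureCounts 1.6.3, SAMtools 1.9, Trimmomatic 0.38 and FastQC 0.11.7. For settings and strand use the sources used here give nothing. Deposited were raw counts per gene and the authors' FPKM for the same genes, whose calculation is not stated. Counts were scaled by TMM to CPM. Tests across genes used edgeR 4.0.16 (quasi-likelihood, R 4.3.3) on all 6 libraries together, with passage and treatment as additive terms (2 residual and 4.83 prior degrees of freedom, common biological coefficient of variation 7.72%), with filterByExpr on passage and Benjamini-Hochberg adjustment over 16962 genes. A response that differs between passages counts as error in it. The interaction fit used passage, amyrin (yes or no) and their product. Pairs of libraries were compared as log2 ratios of CPM with a prior count of 2. The procedure was tested on simulated data with independent libraries and far fewer changed genes than were called between passages here. Alternatives were RLE size factors, no filter, at least 5 CPM in at least 3 libraries, DESeq2 1.42.0, limma 3.58.1 on log2(FPKM + 1) and log2(FPKM + 0.1) of the deposited FPKM, 4-library fits, passage alone, leaving out each library and, chosen after seeing the data, adding the counts of overlapping genes. Exon lengths and overlaps came from GENCODE M21.

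The members and the lists (8 of pathways, 9 of cell markers) were chosen with earlier results of these data known. Named were all 10 members, from each list up to 3 called genes with the smallest adjusted p, every other MMP tested, and 3 genes most like each member (those for Mmp3 are not reported here); other genes of the lists were chosen after their values were seen. The labels give no batch.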

Additional observations from a re-analysis of the deposited data

How the results depend on the processing

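Calls for P6 against P1 kept their count of 8 or reached 9 in all 14 alternatives. Of 139 member values under alternatives, 132 kept direction and side of the threshold, and the exceptions are Mmp9, Mmp11 and Timp1, with the values given above. For α-amyrin against vehicle the count of members called went from 0 to 1 (Timp2) with no filter, with DESeq2 and in the 4 α-amyrin and vehicle libraries. Fits without a β-amyrin library rest on those same 4 libraries and add no separate check. With at least 1 CPM in place of 5, the count by size was 1 (Mmp9) in P1 for α-amyrin over vehicle and over β-amyrin. Genes called over all alternatives numbered 8079 to 10455 for P6 against P1 (10034 reported), 0 to 464 for α-amyrin (5), 0 to 404 for β-amyrin (1), 0 to 484 for the difference of the isomers (10) and 0 to 159 for the interaction (0).

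Values that changed sign were all uncalled log2 fold changes. With limma on log2(FPKM + 1) and log2(FPKM + 0.1) these were Timp3 under α-amyrin (0.00498 and 0.00494), Mmp2 under β-amyrin (-0.0226 and -0.0228) and Mmp14 for α-amyrin minus β-amyrin (0.00732 and 0.00732), and Mmp3 under β-amyrin at -0.00370 with the first of them. Mmp2 under β-amyrin was -0.00103 with the filter of at least 5 CPM in 3 libraries. Leaving out each library in turn, the lowest and highest values under passage were -0.25 and 0.64 for Mmp9. Under α-amyrin they were -0.14 and 0.0188 for Mmp14, -0.26 and 0.000716 for Timp1 and -0.0691 and 0.0342 for Timp3. Under β-amyrin they were -0.0436 and 0.0443 for Mmp2, -0.0324 and 0.12 for Mmp3, -0.69 and 0.41 for Mmp9, -0.24 and 0.41 for Mmp13, -0.10 and 0.0612 for Mmp14, -0.0688 and 0.20 for Mmp19 and -0.00743 and 0.25 for Timp1. For α-amyrin minus β-amyrin they were -1.67 and 0.0878 for Mmp9, -0.12 and 0.0402 for Mmp14 and -0.00954 and 0.0946 for Timp3. For the interaction they were -0.0404 and 0.0617 for Mmp2, -0.20 and 0.11 for Mmp3, -0.0189 and 0.29 for Mmp19 and -0.13 and 0.18 for Timp2. The cause of these changes was not tested. In additive fits without 1 library, the treatment term fits the other library of that treatment exactly. The passage difference then rests on the other treatments, so leaving out the P1 or the P6 library of a treatment gave nearly the same passage values. In the interaction fits a lone library of a group is assumed to vary like the others, and the interaction could not be fitted without a vehicle library.

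No paired analysis was possible because the labels give no replicate numbers and each condition has 1 library. Mmp9 was not tested under the filter of at least 5 CPM in 3 libraries. Depth limits Mmp9, Mmp3 and Mmp13, which had 35 to 338 counts per library.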

Other observations

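Markers of several other cell types were measured beside the proteases. Of 7 skeletal and cardiac muscle markers 5 were tested and all 5 fell, and the list summed to 88.8 to 109 CPM in the P1 and 3.62 to 4.23 CPM in the P6 libraries. Of 8 epithelial and mesothelial markers 7 were tested and 6 fell, with sums of 136 to 163 CPM and 2.50 to 3.66 CPM. All 4 tested endothelial markers fell, with sums of 37.7 to 41.1 CPM and 9.60 to 12.4 CPM. Of 10 fibroblast markers 7 fell, 1 rose and 2 were not called. The receptor Pdgfra fell by 2.46 on the log2 scale, while Vim was not called at 0.07 ± 0.04.

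Of 7 senescence and proliferation genes 2 rose (Cdkn2a, 2.68 ± 0.06, and Cdkn2b, 0.52 ± 0.06), 4 fell (Lmnb1, Mki67, Top2a and Hmga2) and Cdkn1a was not called (0.01 ± 0.04).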
